A study of Mus musculus with 6 samples.

Results

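The genes described here are 38 receptors for monoamines, acetylcholine and neuropeptides, taken by symbol from the gene-level read counts of 6 prefrontal cortex libraries. They comprise 9 serotonin, 4 dopamine, 6 adrenergic, 4 muscarinic, 3 nicotinic, 3 histamine and 9 peptide receptors. A receptor was kept where at least 10 reads fell on it in at least 2 libraries, which left 37 of the 38, all of which were among the 18705 genes tested. The dopamine receptor Drd4 was not kept. It had 3 and 3 reads in GSK-LSD1-treated mutants, 2 and 3 in vehicle mutants, and 4 and 11 in wild-type mice.

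The libraries came from mice aged 6 to 8 weeks and form 3 groups of 2. The first group carries Shank3 +/∆C, a heterozygous C-terminal deletion of Shank3, and received GSK-LSD1, an inhibitor of the histone demethylase LSD1 (Kdm1a). The second carries the same allele and received vehicle, and the third is wild type, a C57BL/6 x C3H cross, also on vehicle. The labels give neither the dose nor the days of treatment, and they give no strain background for the mutants. Shank3 itself is a scaffold of the excitatory postsynaptic density whose loss is linked to autism. The series title names LSD1 as a target for treating deficits in autism models, so the design asks how the mutation changes the transcriptome and how the inhibitor changes it in the mutants.

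Most of these receptors are coupled to G proteins. Gs-coupled receptors raise cyclic AMP, Gi-coupled receptors lower it and open potassium channels, and Gq-coupled receptors activate phospholipase C, whereas the nicotinic subunits and Htr3a form ligand-gated cation channels. In the prefrontal cortex they let serotonin, dopamine, noradrenaline, acetylcholine, histamine and locally released peptides tune the excitability of pyramidal neurons and interneurons, and with it attention and working memory. Several are targets of psychiatric drugs.

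Depth ran from 14133834 to 28646960 counted reads per library, so that 3 reads, the floor used here, stood for 0.108 to 0.205 CPM (read counts scaled to library size with TMM factors). This floor covers counting error only. Shank3 had 159 and 148 CPM in GSK-LSD1 mutants, 146 and 174 CPM in vehicle mutants, and 153 and 159.9 CPM in wild-type mice. A gene-level count also takes reads from outside the deleted end, so it does not check the genotype labels. The excitatory neuron markers Slc17a7 and Tbr1, which mark cortical tissue, were present in every library. The labels call the samples biological duplicates, and with 2 per group the p-values rest on a spread estimated over all 6 libraries.

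Per kilobase of exon, the receptors spanned a wide range of levels. The highest was the muscarinic receptor Chrm1 with a mean of 29.2 CPM per kb over the 6 libraries, followed by the cholecystokinin receptor Cckbr with 26.8, the adrenergic receptor Adra1d with 20.03, Chrm4 with 17.1 and the somatostatin receptor Sstr1 with 16.2. The lowest of those kept were the serotonin receptor Htr4 with 1.11, the dopamine receptor Drd5 with 0.969, the mu opioid receptor Oprm1 with 0.572 and the dopamine receptor Drd2 with 0.530 CPM per kb. Drd4 stood at 0.0607. Within a group, the higher library of a kept receptor exceeded the lower one by a median of 1.14 times in GSK-LSD1 mutants, 1.13 times in vehicle mutants and 1.12 times in wild-type mice. The widest gaps were 1.94 times for Drd2, 2.50 times for Htr7 and 1.51 times for Oprk1, in that order of groups.

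**Figure D1:**
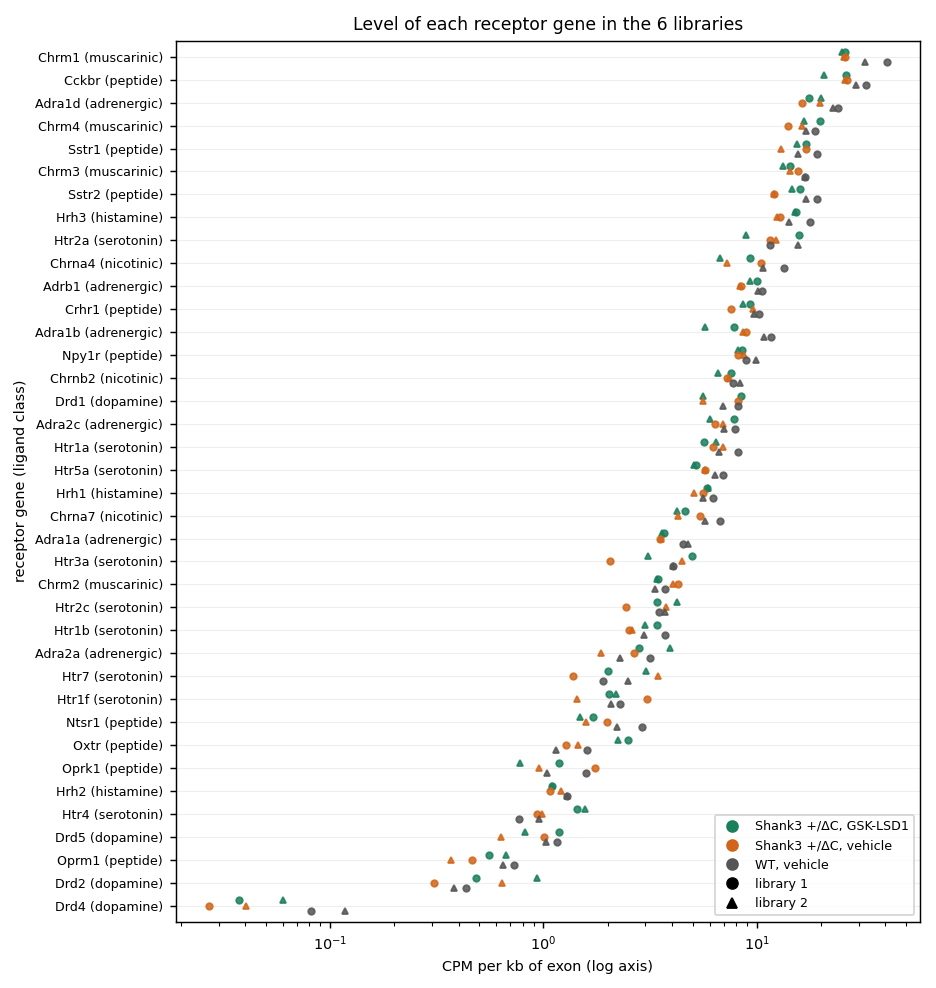
Each point is 1 library, the x axis is CPM per kb of exon on a log scale, and the rows are the 38 receptors in the order of their mean level. Chrm1 and Cckbr sit highest and Drd4 lowest, and most rows show libraries within a narrow band.

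In vehicle mutants, most of these receptors lay below wild type. The log2 fold change was negative for 30 of the 37 (81.1%, against 47.7% of all tested genes), with a median of -0.21 beside 0.02 over all tested genes, and individual values ran from -0.72 for Oprm1 to 0.25 for Chrm2. By edgeR's quasi-likelihood test with Benjamini-Hochberg adjustment over all tested genes, 2 receptors fell, Chrm1 and Sstr2, and 0 rose. That is 5.41% of the receptors, against 0.994% of all tested genes called lower. At an unadjusted p under 0.05, 11 were lower (29.7%, against a background of 8.24%) and 0 were higher. Both vehicle mutant libraries lay below both wild-type libraries for 23 receptors (62.2%, against 23.1% of all tested genes), and above them for 1, Chrm2 (2.70%, against 23.1%). In bulk tissue, fewer cells of a type and less RNA per cell cannot be told apart. Of the 238 genes called in this comparison, 186 were lower; with upper quartile scaling 96 of 141 were, and with library size alone 20 of 35.

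In GSK-LSD1 mutants against vehicle mutants, no receptor passed. The count of 0 by edgeR came with 8 at an unadjusted p under 0.05, DESeq2 and limma-voom also called 0, and 0.107% of all tested genes were called in either direction. Of those 8, 6 were higher (16.2%, against 3.18% of all tested genes) and 2 were lower (5.41%, against 2.52%). GSK-LSD1 libraries lay above both vehicle mutant libraries for 11 receptors (29.7%, against 17.0%) and below both for 3 (8.11%, against 16.6%). The median was 0.06 beside -0.0007 over all tested genes, with individual values from -0.45 for the kappa opioid receptor Oprk1 to 0.79 for the oxytocin receptor Oxtr.

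GSK-LSD1 mutants also differed from wild type. Adra1b and Chrm1 fell (5.41% of the receptors, against 1.99% of all tested genes called lower) and Oxtr rose (2.70%, against 0.636% called higher). The log2 fold change was negative for 29 of the 37, with a median of -0.13 beside 0.02 over all tested genes and individual values from -0.71 for Adra1b to 0.80 for Oxtr. At an unadjusted p under 0.05, 11 were lower (29.7%, against 8.62%) and 2 were higher (5.41%, against 7.11%). The groups did not overlap for 17 lower receptors (45.9%, against 22.4%) and 3 higher ones (8.11%, against 23.5%). Of all 491 genes called here, 372 were lower, and with library size alone 142 of 253 were. Both comparisons with wild type share the same wild-type libraries, and the first 2 comparisons share the vehicle mutants.

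**Figure D2:**
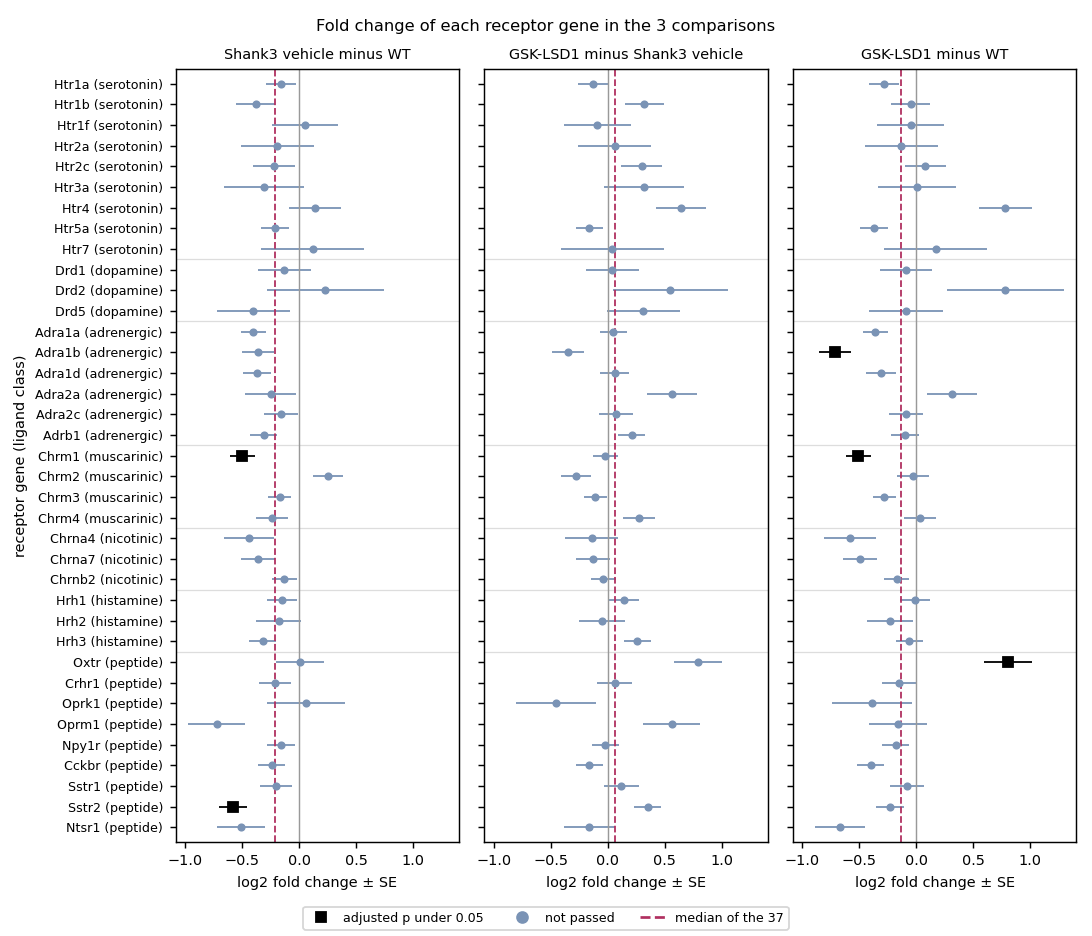
Points are log2 fold changes with their standard errors for the 37 receptors in the 3 comparisons, black squares passed at an adjusted p under 0.05, and the dashed line is the median over the 37. The points lie mostly left of 0 against wild type in both mutant groups (medians -0.21 and -0.13) and around 0 between the mutant groups (median 0.06).

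None of the 9 serotonin receptors was called in any comparison by edgeR, DESeq2 or limma-voom. At an unadjusted p under 0.05 by edgeR, 1 was lower in vehicle mutants against wild type (11.1%, against 8.24% of all tested genes). Between the mutant groups 1 was higher (11.1%, against 3.18%). In GSK-LSD1 mutants against wild type 2 were lower (22.2%, against 8.62%) and 1 was higher (11.1%, against 7.11%). The median log2 fold change of the class was -0.19 in vehicle mutants against wild type, 0.06 in GSK-LSD1 mutants against vehicle mutants and -0.05 in GSK-LSD1 mutants against wild type. Htr4, a Gs-coupled receptor found on pyramidal cells, had the smallest p of the class. It had 7.08 and 7.70 CPM in GSK-LSD1 mutants, 4.60 and 4.85 CPM in vehicle mutants, and 3.76 and 4.70 CPM in wild-type mice. Both GSK-LSD1 libraries therefore lay above all 4 others, while the vehicle mutants and the wild type overlapped. The log2 fold change was 0.64 ± 0.22 (SE) against vehicle mutants (adjusted p = 0.704) and 0.78 ± 0.23 against wild type (adjusted p = 0.0781).

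Htr5a, a Gi-coupled receptor, had 28.0 and 27.3 CPM in GSK-LSD1 mutants, 30.9 and 30.8 CPM in vehicle mutants, and 37.2 and 34.4 CPM in wild-type mice. The 3 groups did not overlap, with GSK-LSD1 mutants lowest and wild type highest, and the GSK-LSD1 to wild-type difference of -0.37 ± 0.12 had an adjusted p of 0.116. Htr2a, the Gq-coupled receptor through which serotonergic psychedelics act, had the highest level per kilobase of its class (12.7 CPM per kb). It varied more between libraries of 1 group than between groups, with 88.6 and 50.1 CPM in GSK-LSD1 mutants, 64.9 and 69.2 CPM in vehicle mutants, and 64.8 and 87.8 CPM in wild-type mice. The Gi-coupled Htr1a and Htr1b, which also serve as autoreceptors on serotonin neurons, had log2 fold changes of -0.16 ± 0.13 and -0.38 ± 0.17 in vehicle mutants against wild type, and Htr1b lay at 11.9 and 12.3 CPM in vehicle mutants against 17.6 and 14.02 CPM in wild-type mice. The Gq-coupled Htr2c, the channel subunit Htr3a, the Gi-coupled Htr1f and the Gs-coupled Htr7 had log2 fold changes between -0.31 and 0.12 in the same comparison, within 1.5 SE of 0.

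Apart from Drd1, the dopamine receptors were among the lowest of all, and none was called by edgeR, DESeq2 or limma-voom, or had an unadjusted p under 0.05, in any comparison. Drd1, the main Gs-coupled dopamine receptor of the cortex, had 30.5 and 20.3 CPM in GSK-LSD1 mutants, 29.6 and 20.2 CPM in vehicle mutants, and 29.6 and 25.1 CPM in wild-type mice. The groups overlapped throughout. Drd2, the Gi-coupled receptor bound by antipsychotic drugs, had 1.23 and 2.38 CPM in GSK-LSD1 mutants, 0.781 and 1.63 CPM in vehicle mutants, and 1.10 and 0.976 CPM in wild-type mice. Its GSK-LSD1 libraries lay above wild type, by 0.78 ± 0.51 on the log2 scale (adjusted p = 0.502), with a wide error. The Gs-coupled Drd5 had 3.73 and 2.59 CPM in GSK-LSD1 mutants, 3.17 and 1.995 CPM in vehicle mutants, and 3.63 and 3.22 CPM in wild-type mice, a difference of -0.40 ± 0.32 between vehicle mutants and wild type (adjusted p = 0.649).

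All 6 adrenergic receptors had negative log2 fold changes in vehicle mutants against wild type, with a median of -0.34, and for 5 of the 6 the groups did not overlap (23.1% of all tested genes were lower in this way). None passed after adjustment by edgeR, DESeq2 or limma-voom in that comparison, and 4 were lower at an unadjusted p under 0.05 by edgeR (8.24% of all tested genes). In GSK-LSD1 mutants against wild type, 1 of the 6 fell (1.99% of all tested genes were called lower) and the median was -0.21. There, 3 of the 6 were lower at an unadjusted p under 0.05 by edgeR (8.62% of all tested genes) and 0 were higher. For 4 of the 6 both GSK-LSD1 libraries lay below both wild-type libraries (22.4% of all tested genes). The class holds the Gq-coupled Adra1a, Adra1b and Adra1d, through which noradrenaline excites cortical neurons, the Gi-coupled Adra2a and Adra2c and the Gs-coupled Adrb1.

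Adra1b (chromosome 11, 43774606 to 43901210, minus strand, GRCm38) was the adrenergic receptor that fell. It had 26.5 and 19.3 CPM in GSK-LSD1 mutants, 29.9 and 29.0 CPM in vehicle mutants, and 39.2 and 36.6 CPM in wild-type mice. The 3 groups did not overlap, with GSK-LSD1 mutants lowest and wild type highest. In GSK-LSD1 mutants it averaged 22.9 ± 5.05 CPM, against 37.9 ± 1.83 CPM in wild-type mice (SD, n = 2 libraries each), or 61.0% of wild type (log2 fold change -0.71 ± 0.14, adjusted p = 0.0147 by edgeR). Vehicle mutants differed from wild type by -0.36 ± 0.14 (adjusted p = 0.229), and GSK-LSD1 mutants from vehicle mutants by -0.35 ± 0.14 (adjusted p = 0.799). The call rests on GSK-LSD1 library 2 and wild-type library 1: it was lost without the first (-0.51, adjusted p = 0.108) and without the second (-0.67, adjusted p = 0.188).

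Adra1a had 32.0 and 31.5 CPM in GSK-LSD1 mutants, 30.6 and 30.9 CPM in vehicle mutants, and 39.5 and 41.7 CPM in wild-type mice. Its 4 mutant libraries lay close together and below both wild-type libraries, with log2 fold changes of -0.36 ± 0.11 for GSK-LSD1 mutants (adjusted p = 0.117) and -0.40 ± 0.11 for vehicle mutants (adjusted p = 0.0926) against wild type. Adra1d, the adrenergic receptor with the highest level per kilobase, likewise lay below wild type in all 4 mutant libraries, with 33.4 and 38.1 CPM in GSK-LSD1 mutants, 30.9 and 37.4 CPM in vehicle mutants, and 45.5 and 43.0 CPM in wild-type mice. Its fold change in vehicle mutants against wild type was -0.37 ± 0.12 (adjusted p = 0.160). Adrb1 had 33.8 and 31.4 CPM in GSK-LSD1 mutants, 28.5 and 28.2 CPM in vehicle mutants, and 35.9 and 34.4 CPM in wild-type mice, so that the groups did not overlap and vehicle mutants were lowest (-0.31 ± 0.12 against wild type, adjusted p = 0.225). Adra2a differed in another direction: its 13.5 and 18.9 CPM in GSK-LSD1 mutants lay above the 12.8 and 8.98 CPM of vehicle mutants (0.56 ± 0.22, adjusted p = 0.799), and wild type overlapped both with 15.3 and 11.0 CPM. Adra2c differed by -0.16 in vehicle mutants against wild type.

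Among the acetylcholine receptors, Chrm1 (chromosome 19, 8663789 to 8683587, plus strand, GRCm38) was lower in both mutant groups than in wild type. It is the main Gq-coupled muscarinic receptor of cortical pyramidal neurons. It had 168 and 163 CPM in GSK-LSD1 mutants (3962 and 2386 reads), 168 and 166 CPM in vehicle mutants (3663 and 3658 reads), and 263 and 209 CPM in wild-type mice (3848 and 5793 reads). The 4 mutant libraries lay within a few CPM of each other, and the 2 wild-type libraries lay apart from them and from each other. GSK-LSD1 mutants averaged 165 ± 3.83 CPM, vehicle mutants 167 ± 1.75 CPM and wild-type mice 236 ± 38.2 CPM (SD, n = 2 libraries each).

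Chrm1 thus stood at 70.0% of wild type in GSK-LSD1 mutants (log2 fold change -0.51 ± 0.11, adjusted p = 0.0233 by edgeR) and at 70.8% in vehicle mutants (-0.50 ± 0.11, adjusted p = 0.0430). Between the mutant groups it differed by -0.02 ± 0.11 (adjusted p = 0.999). The wild-type library 1 carries much of the difference: without it the log2 fold change was -0.34 in GSK-LSD1 mutants (adjusted p = 0.429) and -0.33 in vehicle mutants (adjusted p = 0.611). The call in vehicle mutants was also lost without either vehicle library (adjusted p = 0.184 and 0.260), with upper quartile scaling (0.0610), library size alone (0.0984), limma-voom (0.0593), a non-robust fit (0.0723) and a correction for length and GC content (0.0683). The call in GSK-LSD1 mutants was also lost without GSK-LSD1 library 2 (adjusted p = 0.0968) and with library size alone (0.0596).

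The other muscarinic receptors did not pass. The Gq-coupled Chrm3 had 89.8 and 83.1 CPM in GSK-LSD1 mutants, 97.2 and 89.1 CPM in vehicle mutants, and 105 and 105 CPM in wild-type mice. Both mutant groups lay below wild type, by -0.28 ± 0.10 in GSK-LSD1 mutants (adjusted p = 0.182) and -0.17 ± 0.10 in vehicle mutants (adjusted p = 0.489). The Gi-coupled Chrm2, which also limits acetylcholine release, was the single receptor of the 37 whose vehicle mutant libraries lay above both wild-type libraries. It had 20.8 and 20.6 CPM in GSK-LSD1 mutants, 25.8 and 24.6 CPM in vehicle mutants, and 22.4 and 20.1 CPM in wild-type mice, and the difference between vehicle mutants and wild type was 0.25 ± 0.13 (adjusted p = 0.423). The Gi-coupled Chrm4 had 28.4 and 24.0 CPM in GSK-LSD1 mutants, 20.1 and 23.5 CPM in vehicle mutants, and 27.1 and 24.5 CPM in wild-type mice.

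For all 3 nicotinic subunits the vehicle mutant and the GSK-LSD1 libraries lay below both wild-type libraries. Of all tested genes, 23.1% lay lower in this way in vehicle mutants and 22.4% in GSK-LSD1 mutants. The class medians were -0.36 for vehicle mutants and -0.49 for GSK-LSD1 mutants, and 0 subunits passed by edgeR. At an unadjusted p under 0.05 by edgeR, 1 was lower in vehicle mutants (8.24% of all tested genes) and 2 in GSK-LSD1 mutants (8.62%). Chrna7, which forms calcium-permeable channels of its own, had 20.7 and 19.0 CPM in GSK-LSD1 mutants, 24.3 and 19.3 CPM in vehicle mutants, and 30.3 and 25.8 CPM in wild-type mice (-0.49 ± 0.15 for GSK-LSD1 mutants against wild type, adjusted p = 0.0923). Chrna4 and Chrnb2 together make the commonest high-affinity nicotinic channel of the brain. Chrna4 had 46.8 and 33.8 CPM in GSK-LSD1 mutants, 52.7 and 36.5 CPM in vehicle mutants, and 67.5 and 53.9 CPM in wild-type mice. Its libraries spread widely within each group, and its log2 fold change was -0.58 ± 0.23 in GSK-LSD1 mutants against wild type (adjusted p = 0.284); DESeq2 called it there. Chrnb2 differed less, by -0.17 in GSK-LSD1 mutants and -0.13 ± 0.11 in vehicle mutants.

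The 3 histamine receptors had a median log2 fold change of -0.18 in vehicle mutants against wild type and 0.14 in GSK-LSD1 mutants against vehicle mutants. There were 0 calls by edgeR, DESeq2 or limma-voom in any comparison. At an unadjusted p under 0.05 by edgeR, 1 was lower in the former (33.3%, against 8.24% of all tested genes) and 1 higher in the latter (33.3%, against 3.18%). In both this was Hrh3, a Gi-coupled receptor that, among other roles, restrains histamine release. Hrh3 had 48.1 and 47.5 CPM in GSK-LSD1 mutants, 40.6 and 39.2 CPM in vehicle mutants, and 55.6 and 44.7 CPM in wild-type mice. The vehicle mutants lay below both other groups, by -0.32 ± 0.12 against wild type (adjusted p = 0.207), and GSK-LSD1 mutants lay 0.26 ± 0.12 above vehicle mutants (adjusted p = 0.856). The Gq-coupled Hrh1 had 25.9 and 26.3 CPM in GSK-LSD1 mutants, 24.8 and 22.5 CPM in vehicle mutants, and 27.7 and 25.0 CPM in wild-type mice. The Gs-coupled Hrh2 was lower in level, with 6.34 to 7.67 CPM over all libraries.

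Among the 9 peptide receptors, Sstr2 fell in vehicle mutants and Oxtr rose in GSK-LSD1 mutants, both against wild type. Promoter sequences are shown for these and for Adra1b, because Sstr2, Oxtr and Adra1b passed in at least 1 comparison and GSK-LSD1 acts on an enzyme that works at promoters. Chrm1 also passed, but no window was found for it. No receptor passed between the mutant groups, which differ in GSK-LSD1, and a link of these promoters to the inhibitor was not tested. The sequences come from RefSeq on GRCm38.p6, run from 250 bases before to 50 bases after the start on the strand of the gene, and carry matches on either strand in capitals. The motifs searched were the cyclic AMP response element TGACGTCA (CRE), the GC box GGGCGG, the EGR site GCGTGGGCG, whose last letters can overlap a GC box, and GGACAG, a part of the REST site. They were looked for because REST and its corepressor are partners of LSD1, and CRE and EGR sites follow receptor signalling.
Sstr2, chr11:113619077-113619376, plus strand: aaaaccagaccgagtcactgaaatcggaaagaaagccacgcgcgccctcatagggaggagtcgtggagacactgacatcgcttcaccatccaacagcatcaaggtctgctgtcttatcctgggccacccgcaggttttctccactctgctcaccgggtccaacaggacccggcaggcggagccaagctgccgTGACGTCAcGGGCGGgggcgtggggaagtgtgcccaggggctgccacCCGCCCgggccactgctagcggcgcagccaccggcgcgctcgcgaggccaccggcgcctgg
Oxtr, chr6:112489776-112490075, minus strand: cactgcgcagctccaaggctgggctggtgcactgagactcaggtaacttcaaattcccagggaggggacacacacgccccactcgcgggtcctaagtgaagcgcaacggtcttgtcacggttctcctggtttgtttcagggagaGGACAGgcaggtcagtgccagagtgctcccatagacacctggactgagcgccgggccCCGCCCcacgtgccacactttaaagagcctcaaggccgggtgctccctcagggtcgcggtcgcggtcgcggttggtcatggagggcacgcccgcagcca
Adra1b, upstream start, chr11:43901188-43901487, minus strand: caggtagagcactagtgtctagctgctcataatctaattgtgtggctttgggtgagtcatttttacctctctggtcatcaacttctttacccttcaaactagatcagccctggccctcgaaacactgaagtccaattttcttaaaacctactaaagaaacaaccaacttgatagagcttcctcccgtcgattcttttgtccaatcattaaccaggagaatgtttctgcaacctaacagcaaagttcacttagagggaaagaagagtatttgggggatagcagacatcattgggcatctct
Adra1b, downstream start, chr11:43836440-43836739, minus strand: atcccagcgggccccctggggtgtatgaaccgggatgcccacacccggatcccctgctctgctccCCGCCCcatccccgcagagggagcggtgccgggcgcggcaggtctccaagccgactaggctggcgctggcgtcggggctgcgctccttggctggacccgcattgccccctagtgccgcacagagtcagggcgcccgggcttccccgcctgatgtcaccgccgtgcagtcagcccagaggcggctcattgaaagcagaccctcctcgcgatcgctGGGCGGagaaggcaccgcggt

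Positions are those of a match's first base, with the start at 0. The Sstr2 window holds a CRE at -58 and GC boxes at -49 and -11, the Oxtr window holds the REST part at -106 and a GC box at -49, and the 2 Adra1b starts differ, the upstream one having no match and the downstream one GC boxes at -185 and 29. GC content was 66.3% for Sstr2, 63.7% for Oxtr, and 42.3% and 71.3% for the upstream and downstream Adra1b windows. RefSeq windows were found for 31 of the 38 receptors. The CRE was in the window of 1 of these 31, Sstr2, and in 1.79% of all 32851 promoters, the EGR site was in that of Htr7 and in 0.612% of promoters, the GC box was in those of 21 receptors and in 35.7% of promoters, and the REST part was in those of 12 receptors and in 22.2% of promoters. A receptor may have more than 1 window, and these are matches of letters only.

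Sstr2 (chromosome 11, 113619342 to 113626028, plus strand, GRCm38) is a Gi-coupled receptor by which somatostatin from interneurons dampens pyramidal cells. It had 34.0 and 31.4 CPM in GSK-LSD1 mutants, 25.8 and 25.7 CPM in vehicle mutants, and 40.8 and 36.2 CPM in wild-type mice. The 3 groups did not overlap: vehicle mutants were lowest and GSK-LSD1 mutants lay between them and wild type. Vehicle mutants averaged 25.8 ± 0.0836 CPM, against 38.5 ± 3.22 CPM in wild-type mice (SD, n = 2 libraries each), or 67.1% of wild type (log2 fold change -0.58 ± 0.12, adjusted p = 0.0302 by edgeR). GSK-LSD1 mutants averaged 32.7 ± 1.83 CPM and lay 0.35 ± 0.12 above vehicle mutants (adjusted p = 0.705) and -0.23 ± 0.12 from wild type (adjusted p = 0.376). The call was lost without wild-type library 1 (-0.50, adjusted p = 0.471), without vehicle library 1 (adjusted p = 0.143), without vehicle library 2 (adjusted p = 0.187), with library size alone (0.0782) and in a fit that was not robust (0.0605).

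Oxtr (chromosome 6, 112473683 to 112489943, minus strand, GRCm38), the Gq-coupled oxytocin receptor with a role in social behaviour, had 11.9 and 10.7 CPM in GSK-LSD1 mutants, 6.11 and 6.94 CPM in vehicle mutants, and 7.67 and 5.49 CPM in wild-type mice. Both GSK-LSD1 libraries lay above all 4 others, and the vehicle mutants lay within the wild-type range. GSK-LSD1 mutants averaged 11.3 ± 0.830 CPM, vehicle mutants 6.53 ± 0.584 CPM and wild-type mice 6.58 ± 1.54 CPM (SD, n = 2 libraries each). Against wild type this was a fold change of 1.74 (log2 0.80 ± 0.21, adjusted p = 0.0498 by edgeR) and against vehicle mutants 0.79 ± 0.21 on the log2 scale, where the adjusted p of 0.312 missed the threshold. The call against wild type stood at the edge of the threshold and held under 4 of 18 alternatives (no filter, DESeq2, limma-voom and without vehicle library 2), with adjusted p from 0.0109 to 0.296 and log2 fold changes from 0.56 to 1.04. It was lost without either wild-type library, either GSK-LSD1 library or vehicle library 1 (adjusted p = 0.149, 0.296, 0.148, 0.0920 and 0.0604).

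**Figure D3:**
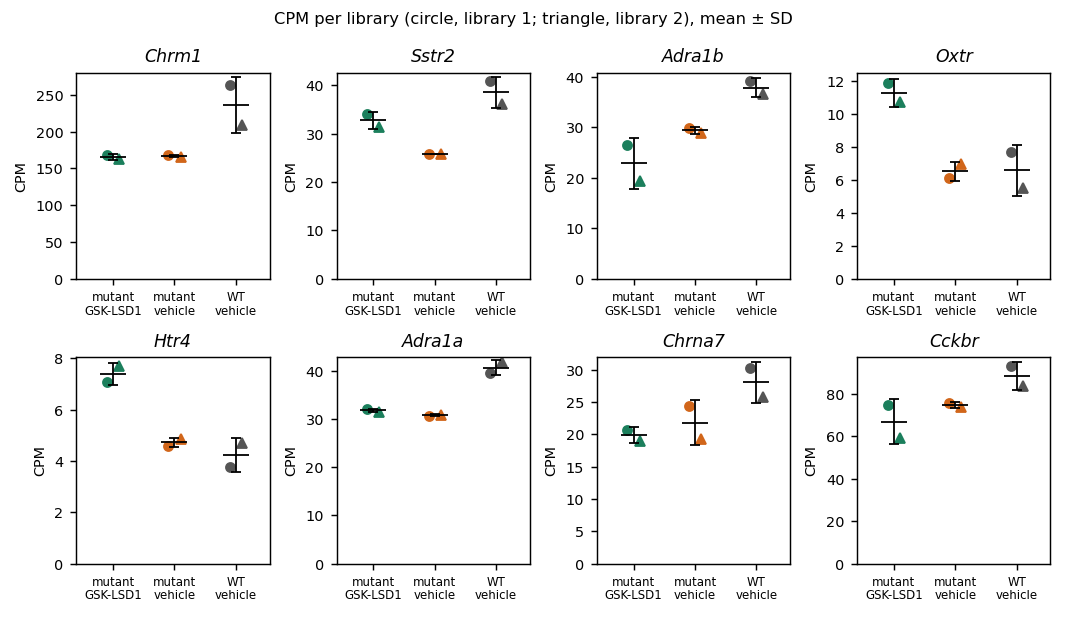
CPM of 8 receptors per library (circle, library 1; triangle, library 2) with the mean and SD of each group as a bar, GSK-LSD1 mutants at the left, vehicle mutants in the middle and wild type at the right. Chrm1 shows 4 mutant libraries from 163 to 168 CPM below the wild-type libraries at 263 and 209 CPM, Sstr2 is lowest in vehicle mutants, Adra1b is lowest in GSK-LSD1 mutants, and Oxtr and Htr4 are highest in GSK-LSD1 mutants.

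The other peptide receptors did not pass. Cckbr, the Gq-coupled receptor for cholecystokinin, had 74.5 and 59.3 CPM in GSK-LSD1 mutants, 75.7 and 73.7 CPM in vehicle mutants, and 93.2 and 83.6 CPM in wild-type mice. All 4 mutant libraries lay below wild type, by -0.40 ± 0.12 in GSK-LSD1 mutants (adjusted p = 0.0843, called by DESeq2) and -0.24 ± 0.12 in vehicle mutants (adjusted p = 0.369). Oprm1, the Gi-coupled mu opioid receptor, had 4.49 and 5.38 CPM in GSK-LSD1 mutants, 3.72 and 2.95 CPM in vehicle mutants, and 5.82 and 5.20 CPM in wild-type mice. It gave the lowest fold change in vehicle mutants against wild type (-0.72 ± 0.25, adjusted p = 0.182), and its GSK-LSD1 libraries lay above vehicle mutants (0.56 ± 0.25, adjusted p = 0.854). Oprk1, the Gi-coupled kappa opioid receptor, had 10.8 and 7.09 CPM in GSK-LSD1 mutants, 15.9 and 8.75 CPM in vehicle mutants, and 14.4 and 9.54 CPM in wild-type mice, with overlap throughout.

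Ntsr1, the Gq-coupled neurotensin receptor that marks corticothalamic cells of the deep layers, had 6.66 and 5.79 CPM in GSK-LSD1 mutants, 7.81 and 6.17 CPM in vehicle mutants, and 11.4 and 8.67 CPM in wild-type mice. Both mutant groups lay below wild type, by -0.67 ± 0.22 for GSK-LSD1 mutants (adjusted p = 0.121) and -0.51 ± 0.21 for vehicle mutants (adjusted p = 0.280). The Gs-coupled stress receptor Crhr1, the Gi-coupled neuropeptide Y receptor Npy1r and the Gi-coupled somatostatin receptor Sstr1 had log2 fold changes of -0.21, -0.16 and -0.20 in vehicle mutants and -0.15, -0.18 and -0.08 in GSK-LSD1 mutants, both against wild type.

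Sorted by coupling, the 11 Gq-coupled receptors had a median of -0.31 in GSK-LSD1 mutants against wild type, and -0.24 in vehicle mutants. The 15 tested Gi-coupled receptors had medians of -0.08 and -0.20, the 7 Gs-coupled ones -0.09 and -0.18, and the 4 channel subunits -0.33 and -0.34, for GSK-LSD1 mutants and vehicle mutants in that order. Between the mutant groups the medians were 0.05 for Gq, 0.12 for Gi, 0.06 for Gs and -0.09 for the channels. In GSK-LSD1 mutants against wild type, the receptors lower at an unadjusted p under 0.05 by edgeR were 7 of 11 for Gq, 2 of 15 for Gi, 0 of 7 for Gs and 2 of 4 for the channels, against 8.62% of all tested genes. Those higher were 1 for Gq, 0 for Gi, 1 for Gs and 0 for the channels, against 7.11%. In vehicle mutants against wild type, 5 of 11 for Gq, 4 of 15 for Gi, 1 of 7 for Gs and 1 of 4 for the channels were lower (against 8.24%), and 0 were higher. Between the mutant groups, 1 for Gq, 1 for Gi, 0 for Gs and 0 for the channels were lower (against 2.52%). There, 1 for Gq, 4 for Gi, 1 for Gs and 0 for the channels were higher (against 3.18%). These medians and counts are descriptions, and the difference between the coupling classes was not tested.

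Levels summed over receptors and markers show what moved beside them. All receptors together had 1169 and 1055 CPM in GSK-LSD1 mutants, 1106 and 1085 CPM in vehicle mutants, and 1389.8 and 1272 CPM in wild-type mice. The 8 excitatory neuron markers had 3207 and 2767 CPM in GSK-LSD1 mutants, 3106 and 3128 CPM in vehicle mutants, and 3795 and 3596 CPM in wild-type mice, so that both mutant groups lay below wild type, as for the receptors. Of these markers, Tbr1 fell in GSK-LSD1 mutants against wild type (-0.54 ± 0.12, adjusted p = 0.0260) and differed by -0.28 ± 0.12 in vehicle mutants against wild type (adjusted p = 0.311). The list was not uniform: 7 of the 8 had a negative log2 fold change in GSK-LSD1 mutants and 6 of the 8 in vehicle mutants. Slc17a6, a vesicular glutamate transporter, went the other way, with 20.2 and 27.8 CPM in GSK-LSD1 mutants, 20.4 and 26.1 CPM in vehicle mutants, and 15.8 and 15.6 CPM in wild-type mice (0.60 ± 0.17 for GSK-LSD1 mutants, adjusted p = 0.0711, called by DESeq2; 0.57 ± 0.17 for vehicle mutants, adjusted p = 0.110). The 9 inhibitory neuron markers overlapped, with 519.7 and 607 CPM in GSK-LSD1 mutants, 504 and 602 CPM in vehicle mutants, and 525 and 573 CPM in wild-type mice. The part of the neuronal markers in the receptor differences was not tested.

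Glial markers lay the other way. The 8 astrocyte markers had 4608 and 4539.6 CPM in GSK-LSD1 mutants, 4678 and 4846 CPM in vehicle mutants, and 3483 and 4256 CPM in wild-type mice. Against wild type by edgeR, Gja1 and Aqp4 rose in vehicle mutants (25.0%, against 0.278% of all tested genes called higher). Aldh1l1, Gja1 and Aqp4 rose in GSK-LSD1 mutants (37.5%, against 0.636%). The 8 oligodendrocyte markers had 2237 and 5226 CPM in GSK-LSD1 mutants, 5559 and 5602 CPM in vehicle mutants, and 2359.6 and 2196 CPM in wild-type mice. GSK-LSD1 library 1 therefore lay near wild type and library 2 near the vehicle mutants. The median receptor stood at 0.00 and -0.10 (log2 deviation from its mean over libraries) in GSK-LSD1 libraries 1 and 2, at -0.10 and -0.12 in vehicle mutants, and at 0.21 and 0.11 in wild-type mice, with a pooled SD within groups of 0.06. The oligodendrocyte level itself differs between these groups; with it as a covariate, the median of the receptors in vehicle mutants against wild type was -0.12 and 0 passed. Chrm1 and Sstr2 then had log2 fold changes of -0.51 and -0.50 (adjusted p = 0.323 and 0.411). In the same fit Adra1b differed by 0.01 in vehicle mutants against wild type. In GSK-LSD1 mutants against wild type Adra1b differed by -0.57 and Chrm1 by -0.52, both called by edgeR (adjusted p = 0.0378 and 0.0346). The covariate (mean log2 CPM, centred) was -0.65 and 0.60 in GSK-LSD1 mutants, 0.57 and 0.56 in vehicle mutants, and -0.43 and -0.64 in wild-type mice. The fit can therefore hardly separate the covariate from the difference between vehicle mutants and wild type. Within groups the covariate differed mainly between the 2 GSK-LSD1 libraries, so its slope rests mostly on that pair. The fit is therefore no check of the receptor calls.

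Precursor and microglial markers also lay higher in the mutants, with 239 and 307 CPM for 6 oligodendrocyte precursor markers in GSK-LSD1 mutants, 258 and 311 CPM in vehicle mutants, and 186 and 205 CPM in wild-type mice. The 8 microglial markers had 321 and 300.1 CPM in GSK-LSD1 mutants, 299.8 and 346 CPM in vehicle mutants, and 249.8 and 284 CPM in wild-type mice. By edgeR the precursor marker Gpr17 and the microglial marker Itgam rose in vehicle mutants against wild type. This was 16.7% and 12.5% of the lists, against 0.278% of all tested genes called higher. Markers of tissue next to the cortex were low but uneven: those of the hypothalamus, septum and preoptic area, of which 3 of 12 were high enough to test, had 19.6 and 54.3 CPM in GSK-LSD1 mutants, 15.8 and 28.7 CPM in vehicle mutants, and 15.9 and 13.98 CPM in wild-type mice. GSK-LSD1 library 2 was highest for these. Choroid plexus markers had 9.79 and 19.2 CPM in GSK-LSD1 mutants, 6.34 and 9.75 CPM in vehicle mutants, and 4.65 and 6.36 CPM in wild-type mice. Striatal markers, which bear on dopamine receptors, had 254 and 233 CPM in GSK-LSD1 mutants, 238 and 238 CPM in vehicle mutants, and 269.7 and 271 CPM in wild-type mice. Gene by gene the 8 tested did not all follow this sum. In GSK-LSD1 mutants against wild type 5 were positive and 3 negative (median 0.15), and in vehicle mutants 3 and 5 (median -0.11). Between the mutant groups 3 were higher at an unadjusted p under 0.05 by edgeR (37.5%, against 3.18% of all tested genes) and 0 were lower. The part of these cells in the receptor values was not tested.

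**Figure D4:**
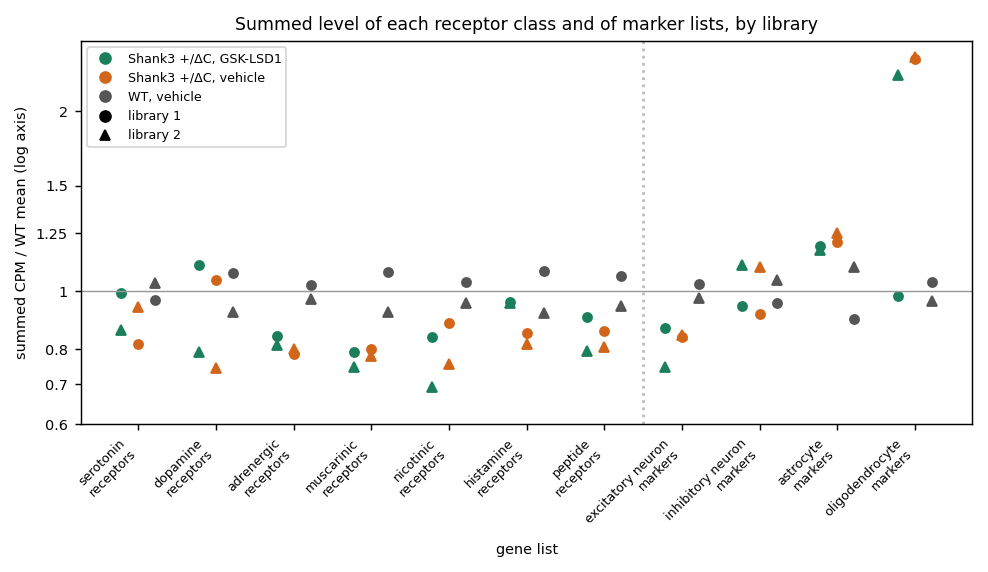
Summed CPM of each receptor class and of marker lists in each library, divided by the wild-type mean, on a log axis. Adrenergic, muscarinic, nicotinic and peptide receptor sums and the excitatory marker sum lie below the wild-type libraries in all 4 mutant libraries. The muscarinic sum is mostly Chrm1. Dopamine receptors overlap, and oligodendrocyte markers are high in both vehicle libraries and in GSK-LSD1 library 2.

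The ligands of these receptors were also read. Of 11 listed neuropeptide genes, 9 were tested and 0 passed in any comparison by edgeR, DESeq2 or limma-voom. By edgeR 1 was higher at an unadjusted p under 0.05 in vehicle mutants against wild type (11.1%, against 5.81% of all tested genes). At the same threshold, 1 was higher in GSK-LSD1 mutants against vehicle mutants (11.1%, against 3.18%). Against wild type, 3 were higher in GSK-LSD1 mutants (33.3%, against 7.11%). In each comparison 0 were lower. Cort, a somatostatin-like peptide, had 4.07 and 5.45 CPM in GSK-LSD1 mutants, 3.72 and 2.99 CPM in vehicle mutants, and 2.60 and 1.92 CPM in wild-type mice, with groups that did not overlap (1.09 ± 0.30 for GSK-LSD1 mutants against wild type, adjusted p = 0.0640). Npy, neuropeptide Y, had 35.9 and 27.7 CPM in GSK-LSD1 mutants, 38.8 and 37.3 CPM in vehicle mutants, and 24.2 and 29.8 CPM in wild-type mice (0.49 ± 0.14 for vehicle mutants against wild type, adjusted p = 0.0988). Oxt, whose product binds Oxtr, had at most 2 reads in any library and was not tested.

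Of 20 genes for the synthesis, transport and breakdown of amines and acetylcholine, 15 were tested and 0 passed by edgeR in any comparison. At an unadjusted p under 0.05 by edgeR, 1 was higher in vehicle mutants against wild type (6.67%, against 5.81% of all tested genes). Between the mutant groups 1 was higher (6.67%, against 3.18%), and in GSK-LSD1 mutants against wild type 2 were (13.3%, against 7.11%). In each comparison 0 were lower. Maob, which breaks down amines and is found in astrocytes, came nearest, with 29.9 and 27.4 CPM in GSK-LSD1 mutants, 24.5 and 26.9 CPM in vehicle mutants, and 16.2 and 22.04 CPM in wild-type mice. GSK-LSD1 mutants lay 0.57 ± 0.15 above wild type (adjusted p = 0.0515), and DESeq2 called it while limma-voom did not. Slc18a3, the vesicular acetylcholine transporter, had 13 and 8 reads in GSK-LSD1 mutants, 1 and 0 in vehicle mutants, and 2 and 6 in wild-type mice (adjusted p = 0.502 between the mutant groups). Its counts are near the floor, and it was tested through the GSK-LSD1 group, where it is high. Slc18a3 is the gene counted between the mutant groups, and its p is no support for a difference. Chat, Dbh, Slc6a2, Slc6a3 and Slc6a4, which act in the afferent neurons that lie mostly outside the cortex, were too low to be tested.

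Among 28 further receptors of the same families, 20 were tested, and Oprd1 fell in GSK-LSD1 mutants against wild type. Oprd1, the Gi-coupled delta opioid receptor, had 16.6 and 17.4 CPM in GSK-LSD1 mutants, 23.0 and 24.1 CPM in vehicle mutants, and 30.0 and 24.2 CPM in wild-type mice (-0.67 ± 0.14 for GSK-LSD1 mutants against wild type, adjusted p = 0.0195). Its GSK-LSD1 libraries lay below all 4 others. Htr1d, a Gi-coupled serotonin receptor, had 22 and 18 reads in GSK-LSD1 mutants, 4 and 6 in vehicle mutants, and 1 and 0 in wild-type mice (adjusted p = 0.0242 against wild type by edgeR, not called by DESeq2). It reached 10 reads in the GSK-LSD1 libraries alone, so it was tested through the group where it is high, and its p is no support for a difference. Drd3 and Hrh4 had 0 reads in every library.

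Downstream of the receptors, 0 of 21 G protein subunits passed by edgeR, with 2 lower and 2 higher at an unadjusted p under 0.05 in vehicle mutants against wild type (9.52% each, against 8.24% and 5.81% of all tested genes), 0 lower and 1 higher between the mutant groups (against 2.52% and 3.18%), and 4 lower and 2 higher in GSK-LSD1 mutants against wild type (against 8.62% and 7.11%). The shares in vehicle mutants lay near those of all genes. The subunits with the smallest p were Gna12, with 0.43 ± 0.12 in vehicle mutants against wild type (adjusted p = 0.0866), and Gnao1, the abundant inhibitory alpha subunit of neurons, with -0.38 ± 0.11 in GSK-LSD1 mutants against wild type (adjusted p = 0.0677). DESeq2 called Gna12 in the first, and Gnao1 and Gnaq in the second. Of 28 second messenger effectors, 25 had a negative log2 fold change in vehicle mutants against wild type (89.3%, against 47.7% of all tested genes; median -0.17), and 0 passed there by edgeR, DESeq2 or limma-voom, with 7 lower and 1 higher at an unadjusted p under 0.05 by edgeR (25.0% and 3.57%, against 8.24% and 5.81%). In GSK-LSD1 mutants against wild type, Pde4a, which degrades cyclic AMP, fell: it had 61.6 and 70.9 CPM in GSK-LSD1 mutants, 79.8 and 74.7 CPM in vehicle mutants, and 113 and 88.7 CPM in wild-type mice (-0.60 ± 0.12, adjusted p = 0.0155). Its groups did not overlap.

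Of 21 listed genes of receptor desensitization, 19 were tested. In GSK-LSD1 mutants against wild type 1 fell (5.26%, against 1.99% of all tested genes called lower) and the list's median was -0.05. At an unadjusted p under 0.05 by edgeR, 2 were lower and 1 was higher there (10.5% and 5.26%, against 8.62% and 7.11%), near the shares of all genes. The gene that fell was Rgs8, a regulator that speeds the turn-off of Gi signalling, with 76.8 and 61.6 CPM in GSK-LSD1 mutants, 67.6 and 89.0 CPM in vehicle mutants, and 128 and 101 CPM in wild-type mice (-0.72 ± 0.16, adjusted p = 0.0401). All 4 mutant libraries lay below wild type. DESeq2 also called Rgs8 lower in vehicle mutants against wild type, while edgeR and limma-voom did not. For some receptors, exons overlap a gene on the other strand, and the strand setting of the counting is not given in the sources used here. This touches 5.07% of Chrm1 exon bases (Gm22820, 0 reads in all libraries), 48.6% of Drd5, 18.0% of Htr1b, 16.3% of Chrnb2, 11.1% of Hrh3, 7.74% of Adra1d, 2.44% of Hrh2, 2.35% of Chrm2 and 1.19% of Oprm1. The neighbours with the most reads per library were Adar at Chrnb2 (2703 to 5064) and Ipcef1 at Oprm1 (2089 to 5670). Chrnb2 itself had 812 to 1927 reads and Oprm1 had 65 to 144. The other neighbours had at most 80 reads. The part of such reads in the receptor counts was not tested.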

How the data were processed

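Bulk RNA-seq of mouse prefrontal cortex was analysed from the deposited raw read counts per gene symbol, 1 table per library with 54134 entries. Per the labels' protocols, libraries were stranded and ribosome-depleted, and per the submitters' processing notes the counts come from cutadapt, TopHat2 and featureCounts on GRCm38 (mm10). Their versions, the annotation release and whether strand was used in counting: not given in the sources used here.

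Genes were filtered with filterByExpr, scaled by TMM and fitted with edgeR 4.0.16 (R 4.3.3; robust quasi-likelihood, 3 groups in 1 fit of 6 libraries, 3 residual degrees of freedom, biological coefficient of variation 11.5%). P-values were two-sided and adjusted after Benjamini-Hochberg over 18705 genes per comparison, with a threshold of 0.05, and SE is the log2 fold change divided by the root of F. Alternatives used DESeq2 1.42.0, limma 3.58.1, other scalings and filters, a length and GC correction (mgcv 1.9.3), the replicate number as a block, the oligodendrocyte level as a covariate and each library left out. Exonic lengths and coordinates come from GENCODE M21, promoters from RefSeq GRCm38.p6. Replicates were not repeats of 1 library, since a chi-square test of their counts gave 9.97 to 13.3 per degree of freedom. The procedure was tested on simulated data.

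The members and gene lists were chosen with earlier results of these data known. Values per library are given for each receptor that passed, for the 2 with the smallest p and the highest per kilobase in each ligand class, and for a few others chosen after their values were seen (Htr1b, Adrb1, Adra2a, Chrm2, Chrm4, Oprm1, Oprk1, Ntsr1 and the marker genes). The result of 1 further marker gene is not reported here.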

Additional observations from a re-analysis of the deposited data

How the results depend on the processing

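Genes called in vehicle mutants against wild type numbered 238, and 141 with upper quartile scaling, 35 with library size alone, 807 with no filter, 602 with DESeq2, 137 with limma-voom, 11 in a fit that was not robust, 524 with the 4 libraries compared alone, 127 with the length and GC correction and 31 with the oligodendrocyte covariate; leaving out 1 library gave 6 to 656. The 2 receptors called there became 1 with upper quartile scaling, limma-voom or the length and GC correction, and 0 with library size alone, a fit that was not robust or the oligodendrocyte covariate; leaving out 1 library gave 0 to 2. Their median was -0.14 with library size alone and -0.12 with the covariate, and -0.31 to -0.18 when 1 library was left out. Library size alone moved the median of all genes to 0.09 here and to 0.10 in GSK-LSD1 mutants against wild type.

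Between the mutant groups, 20 genes were called, 106 with no filter and 35 with DESeq2, and 10 to 83 when 1 library was left out. Receptors called numbered 0 under all 18 alternatives, and their median was -0.01 with the covariate and -0.04 to 0.08 when 1 library was left out. In GSK-LSD1 mutants against wild type, 491 genes were called, 253 with library size alone, 962 with no filter, 782 with DESeq2, and 6 to 631 when 1 library was left out. Receptors called numbered 3, 1 with library size alone, 6 with no filter, 5 with DESeq2, and 0 to 4 when 1 library was left out; 0 were called without wild-type library 1 or GSK-LSD1 library 2. Their median was -0.06 with library size alone and -0.22 to -0.08 when 1 library was left out.

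Of 1998 single-receptor alternatives, 1857 kept direction and side of the threshold, 34 lost a call, 9 gained one and 98 changed sign without a call on either side. Chrna4 and Chrna7, Cckbr and Htr2a were called in alternatives alone. For Chrm1 and Sstr2 in vehicle mutants, 9 and 12 of 18 alternatives kept the call; for Adra1b, Chrm1 and Oxtr in GSK-LSD1 mutants against wild type, 16, 15 and 4 did. The cause of these changes was not tested.

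Same-numbered libraries did not deviate together over the genes as a whole (correlations -0.0501, -0.0577 and 0.0760 over 13961 genes). These correlations cannot exclude a pairing that acts on some genes only. With the number as a replicate block, 233, 18 and 505 genes and 2, 0 and 3 receptors were called in the 3 comparisons; in the last, Chrna4 was called and Oxtr was not.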
